A study of Homo sapiens with 7 samples.

Results

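The subtelomeric ends of the human autosomes were described here as 39 regions of 2 Mb, for the distribution of 5-hydroxymethylcytosine (5-hmC) peaks in neuroblastoma cells kept in low oxygen. An end was taken as the first 2 Mb of chromosomes 1 to 22, leaving out the short arms of chromosomes 13, 14, 15, 21 and 22, and as the 2 Mb before the last peak of each chromosome over all lists. This gave 17 short-arm (p) ends and 22 long-arm (q) ends, 78 Mb in all, and a peak belonged to an end when its midpoint lay in it. The ends held 85374 of the 1873636 peaks of the 6 lists. Position alone chose the members; of the peaks themselves, the last one on each chromosome set the edge of its q end.

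The cells were SK-N-BE(2), an established line from a neuroblastoma that carries an amplified MYCN gene, labelled as wild type in all samples. Cells were kept in 1% oxygen (hypoxia) for 6, 12, 24, 48 or 72 h, or in 21% oxygen (normoxia, 0 h). DNA fragments carrying 5-hmC were tagged through a glucose on the modified base, captured and sequenced, and each time has 1 library and 1 list of peaks. The study is about MYCN, the 5-hmC-forming enzyme TET1 and 5-hmC distribution in hypoxia. With 1 library per time no value has a replicate error, and since normoxia was sampled at 0 h alone, low oxygen cannot be told apart from time in culture.

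5-hmC is made from 5-methylcytosine by the TET dioxygenases, which use molecular oxygen as a substrate, and in most tissues it is found over the bodies of active genes and at enhancers. The ends of human chromosomes carry the telomere repeat at the very tip and, inside it, a stretch of sequence shared between ends. Farther in lie regions that on many arms are rich in genes, CpG sites and recombination, while other ends hold gene-poor stretches or gene families in tandem.

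Peaks were denser in the ends than elsewhere. The ends held 13645, 13736, 13841, 14300, 14708 and 15144 peaks over the 6 times in order, from 0 h to 72 h, with each list above the one before. Each end had a median of 421 peaks at 72 h, with a range from 15 to 712, and of 382 at 0 h, with a range from 13 to 668. At 72 h the ends held 194 peaks per Mb, against 126 per Mb in the rest of the autosomes, counted over the 2622 Mb of 1 Mb bins with any peak. In normoxia the ends held 175 per Mb and the rest 102 per Mb. The density in the ends was thus 1.54 times that of the rest at 72 h and 1.72 times in normoxia. Covered length, the sum of peak widths, came to 137 kb per Mb in the ends and 68.2 kb per Mb in the rest at 72 h. At 0 h it was 112 kb per Mb in the ends and 51.9 kb per Mb in the rest.

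Set against the rest of its own chromosome, an end was denser in 31 of 39 cases at every one of the 6 times. The 8 sparser ends at 0 h were 1q, 3p, 4q, 6p, 9p, 18p, 19q and 20p, and the same 8 were sparser at 72 h. The highest ratio to the rest of the chromosome in normoxia was at 21q, with 3.22 times, and the lowest at 9p, with 0.0662 times. The median over ends was 1.67 times at 72 h and 1.80 times at 0 h. In 34 ends this ratio was lower at 72 h than at 0 h, the exceptions being 1q, 3p, 18p, 19q and 20p.

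**Figure D1:**
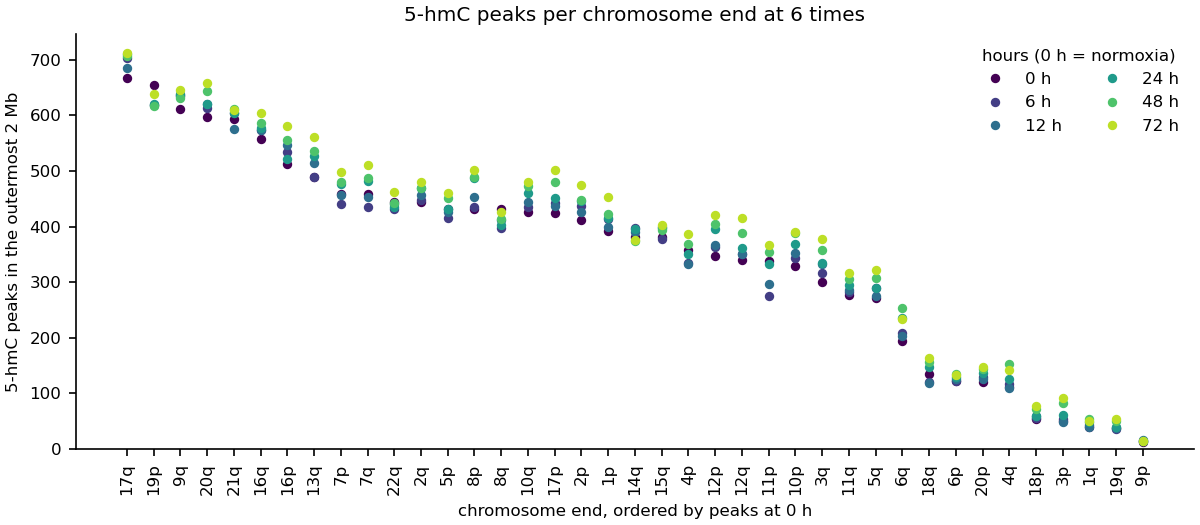
Number of 5-hmC peaks in each of the 39 ends (horizontal axis, ordered by the number at 0 h), with 1 point per time. At 0 h 27 ends lie between 300 and 700 peaks, and the 5 sparsest, 18p, 3p, 1q, 19q and 9p, held 54 peaks or fewer at 0 h.

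The most peak-rich ends in normoxia were 17q with 668 peaks, 19p with 655 and 9q with 611. The fewest were at 9p with 13, 19q with 38 and 1q with 39. The 10 richest ends held 41.0% of all end peaks and 45.5% of their covered length at 0 h. The plot of peaks per end shows that this order was largely kept, and over the 39 ends the Spearman correlation of the numbers at 72 h and 0 h was 0.978, a description across regions of the same pair of libraries.

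The ends of a chromosome could differ widely from each other. Chromosome 9 had 13, 14, 16, 14, 15 and 15 peaks at its p end from 0 to 72 h, against 611, 635, 636, 639, 632 and 646 at its q end. Chromosome 19 had 655 peaks at the p end and 38 at the q end in normoxia, and chromosomes 1 and 3 also differed by more than 5-fold. Among the 17 chromosomes with both ends, the q end held more peaks at 0 h in 9 and the p end in 7, and chromosome 7 had 459 at each.

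As background, the outermost protein-coding genes in the order of the GRCh38.p14 assembly include EHMT1, a histone H3 lysine 9 methyltransferase, and the calcium channel gene CACNA1B at 9q. At 19q they include TRIM28, the corepressor of KRAB zinc finger proteins. The list at 17q includes TBCD, a tubulin folding cofactor. Of the sparse ends, 3p carries the neuronal adhesion genes CHL1 and CNTN6, 20p a row of beta-defensin genes, and 4q DUX4 and FRG1, known from facioscapulohumeral muscular dystrophy. The lists are in hg19, another build, so no gene was joined to a peak.

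Within the ends, peak density was lowest at the tip. The outermost 0.1 Mb held 73.3 peaks per Mb at 0 h and the next 0.1 Mb held 94.6 per Mb. The highest density, 200.2 per Mb, lay from 0.5 to 1 Mb. Density was 192 per Mb from 1.5 to 2 Mb, just inside the limit of an end, and 176 per Mb from 2 to 3 Mb, just outside it. It came down to 128 per Mb from 5 to 10 Mb and 117 per Mb from 10 to 20 Mb. Distance runs from position 0 at p ends, where the first peak lay between 10.5 kb (9p) and 237 kb (20p), and from the last peak at q ends.

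**Figure D2:**
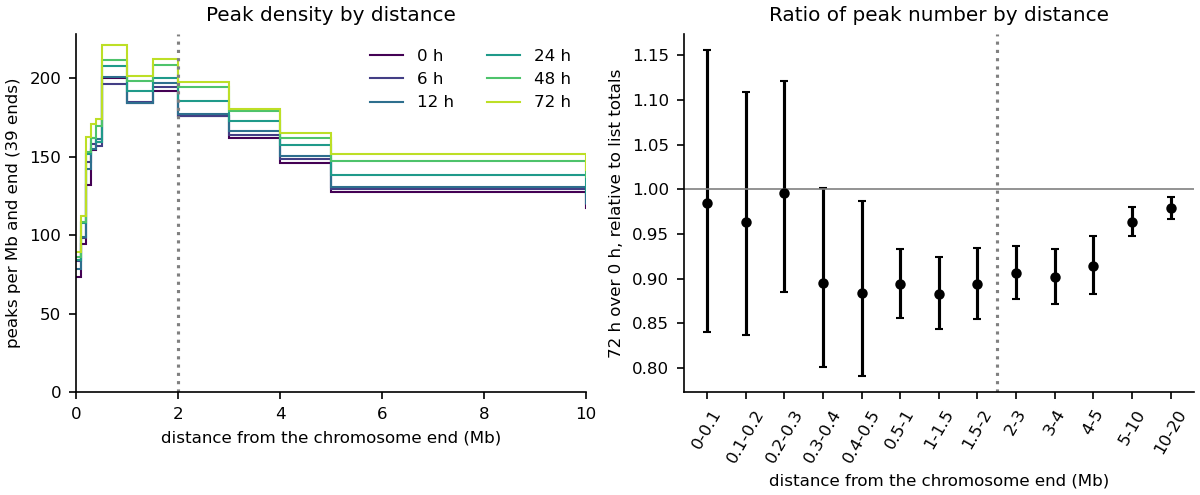
Left, peaks per Mb and end by distance from the chromosome end, out to 10 Mb, 1 line per time. Right, peak number at 72 h over that at 0 h, relative to the list totals, in each distance band, with exact 95% binomial intervals for counting error; the dotted lines mark 2 Mb. Every band from 0.4 to 20 Mb lies below 1 with its whole interval, and the outermost 4 bands have intervals that reach 1.

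The next comparison was how the ends changed over time in hypoxia. The share of list peaks in the ends fell with hours. In order of time it was 4.78, 4.69, 4.71, 4.58, 4.37 and 4.30%, with the lowest values at 48 and 72 h. The exact 95% binomial interval was 4.23 to 4.36% at 72 h and 4.70 to 4.86% at 0 h, for counting error alone. Over the 6 lists Pearson's r with hours was -0.981 (two-sided, exact permutation over the orders of the lists, p = 0.00278 and adjusted p = 0.00278). Spearman's rho was -0.943 (exact permutation p = 0.0167, adjusted p = 0.0167). The lists as a whole held 285292, 292707, 294096, 312126, 336931 and 352484 peaks in order of time. Hours and list length thus rose together, and their parts in the falling share cannot be told apart.

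The share of covered length in the ends fell likewise. In order of time it was 5.96, 5.84, 5.85, 5.74, 5.60 and 5.55%. Against hours this share had r = -0.966 (exact permutation p = 0.00278; the adjusted value is also 0.00278) and rho = -0.943 (exact permutation p = 0.0167, adjusted p = 0.0167). The 48 and 72 h lists lie farthest from the median time, and r over the other 4 lists was -0.952 for number and -0.945 for covered length. Adjustment was by Benjamini-Hochberg over these 2 shares. With the list of 0, 24, 48 or 72 h left out, rho was -0.9 for both shares and no longer passed (exact permutation p = 0.0833). Among peaks of at least 1000 bp alone the relation was not detected (r = -0.319, exact permutation p = 0.521, for number).

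**Figure D3:**
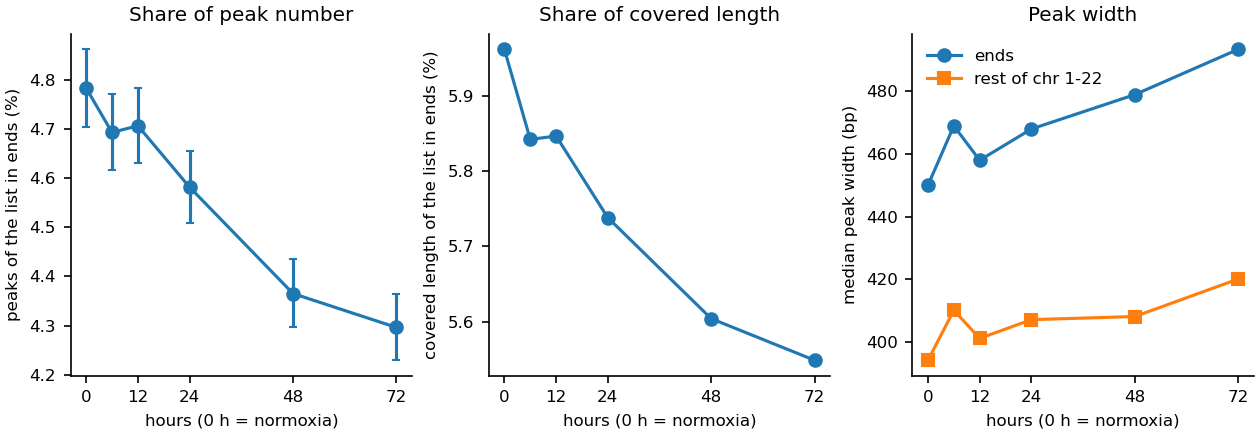
Left and middle, share of each list's peaks (with exact 95% binomial intervals) and of its covered length that lay in the 39 ends, against hours. Right, median peak width in the ends and in the rest of chromosomes 1 to 22. Both shares come down from 0 to 72 h with a small upward step from 6 to 12 h, and the width in the ends stays 56 to 73.5 bp above that of the rest. The vertical axes do not start at 0.

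Beside the lower shares in the plot of shares and widths, the number of peaks in the ends was higher. The ends held 11.0% more peaks at 72 h than at 0 h, against 24.0% more in the rest of the autosomes. At 6 h the figures were 0.667% more in the ends and 2.69% more in the rest, and at 48 h they were 7.79% and 18.4%. Covered length was 10.7 Mb in the ends at 72 h and 8.75 Mb at 0 h, or 21.9% more, against 31.4% more in the rest. All 39 ends had a larger covered length at 72 h than at 0 h, and 36 had more peaks. The same counts were not made over regions of the interior, and the list as a whole held 23.6% more peaks at 72 h.

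Relative to the list totals, peak number in the ends at 72 h was 0.898 times that at 0 h (interval 0.878 to 0.919). The earlier ratios were 0.981 (0.958 to 1.005) for 6 h, 0.984 (0.961 to 1.008) for 12 h, 0.958 (0.936 to 0.981) for 24 h and 0.913 (0.892 to 0.934) for 48 h, so that the 6 and 12 h intervals held 1. The p ends held 12.6% and the q ends 9.91% more peaks at 72 h. By distance, the ratio relative to the totals at 72 h was 0.985 in the outermost 0.1 Mb, 0.963 in the next 0.1 Mb and 0.996 from 0.2 to 0.3 Mb. It was 0.883 to 0.895 in each band from 0.3 to 2 Mb, 0.906 from 2 to 3 Mb and 0.979 from 10 to 20 Mb. The bands just inside and just outside 2 Mb were thus close, at 0.894 and 0.906.

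Single ends were compared with 1390 interior windows of 2 Mb by size alone, since 1 library per time allows no test. A region was called when its ratio to 0 h, corrected for list totals, reached 1.2 or lay at or under the inverse of that, 0.833. Regions with a mean of at least 50 peaks over the lists were used, which kept 36 of 39 ends and 1200 windows, and left out 9p, 19q and 1q. At 72 h 4 ends were called lower (19p, 14q, 8q and 21q), or 11.1%, against 1.42% of the interior windows. One end, 3p, was called higher, or 2.78%, against 15.5% of the windows. The median ratio was 0.926 over all 39 ends and 1.02 over the windows tested. Of the 36 ends 88.9% were below 1, against 44.3% of the windows. The windows tested were sparser, with a median of 219 peaks, against 415 in the ends tested. Shares of calls and of ratios below 1 were not matched for density. The 101 windows at least as dense as the median tested end had a median ratio of 0.904, and the 18 such ends 0.886.

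At the earlier times few ends were called. At 6 h 1 end was lower, 11p, against 0.583% of windows, and 0 were higher, against 0.667%. At 12 h 0 ends were called lower, against 0.583% of windows, and 0 higher, against 0.5%. At 24 h 0 were lower, against 0% of windows, and 0 higher, against 2.75%. At 48 h 3 were lower (8q, 14q and 19p), against 0.583%, and 1 was higher (3p), against 11.3%. With 6 h in place of 0 h as the reference, 1 end was called lower at 72 h, 14q, against 0.5% of windows. By covered length 1 end, 14q, was called lower at 72 h, against 2% of windows. All ratios to 0 h share the 1 normoxia list.

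The 19p end held 655, 618, 618, 621, 617 and 639 peaks from 0 to 72 h. All 5 hypoxia lists were thus below normoxia there, in number. Its covered length was 469, 472, 461, 461, 491 and 539 kb in the same order, so fewer peaks than in normoxia covered more sequence at 6, 48 and 72 h. The ratio of peak number relative to the totals was 0.790 at 72 h (interval 0.707 to 0.882).

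The 14q end, whose tip is the site of the immunoglobulin heavy chain genes, held 382, 397, 390, 395, 375 and 376 peaks from 0 to 72 h. Its ratio relative to the totals came to 1.01 in the 6 h list, 0.945 in the 24 h list and 0.797 in the 72 h list (interval 0.689 to 0.921). Covered length at 72 h was 1.06 times that at 0 h, the lowest such ratio of the 39 ends. The 8q end held 431, 397, 411, 402, 414 and 426 peaks, with a ratio of 0.800 at 72 h (0.698 to 0.917). In number, the 14q end was slightly above normoxia from 6 to 24 h and slightly below it at 48 and 72 h. The 8q end was below normoxia at every hypoxia time.

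The 21q end, which carries S100B, a calcium-binding protein of glia, and PCNT, a centrosome scaffold, held 593, 605, 575, 605, 611 and 609 peaks from 0 to 72 h. Its ratio relative to the totals was 0.831 at 72 h (0.741 to 0.932). It supplied 12.6% of the peaks of chromosome 21 at 72 h and 15.5% at 0 h. The 22q end, with the synaptic scaffold gene SHANK3, had the next ratio above these, 0.842 (0.738 to 0.961), just short of the size that calls an end. There 463 peaks at 72 h stood against 445 at 0 h.

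The 3p end was the one end called higher. It held 50, 53, 49, 61, 82 and 92 peaks from 0 to 72 h. The hypoxia lists of 48 and 72 h stood well above the others. Its ratio relative to the totals was 1.49 at 72 h, with a wide interval of 1.04 to 2.15, and its covered length was 37.5 kb at 72 h, against 19.6 kb at 0 h. Even so the end stayed sparse, at 0.428 times the density of the rest of chromosome 3 at 72 h and 0.297 times at 0 h.

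The next highest ratios at 72 h were 1.15 at 18p (77 peaks at 72 h, 54 at 0 h), 1.13 at 19q (53 and 38), 1.04 at 1q (50 and 39) and 1.04 at 4q (142 and 111). The interval of each of these 4 held 1. Of all 39 ends, 13 had an interval wholly below 1, 1 (3p) had one wholly above, and 25 had one that held 1. Such intervals were not computed for the interior windows, so these counts have no background. At 11p, the end called lower at 6 h, the numbers were 339, 276, 297, 332, 354 and 367 from 0 to 72 h. Its 6, 12 and 24 h lists were below normoxia and the later ones above it.

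Peak density moves with the ratio and is high in the ends. The ratio at 72 h was lower where the mean peak number was higher, across the 36 ends (Spearman's rho = -0.61) and across the 1200 interior windows (rho = -0.57), both descriptions of 1 pair of libraries. Regions were therefore also set in 10 classes of density. In the 19 ends of the densest class, peak number at 72 h relative to the totals was 0.880 times that of 0 h, and in its 116 interior windows 0.908 times. The ends of that class averaged 513 peaks and the windows 486. The ends held 15144 peaks at 72 h, 0.962 times the 15744 that the ratio of interior windows of the same class would give. At the earlier hypoxia times, in order, the same quotient was 0.985, 0.983, 0.979 and 0.961. At 72 h it was below 1 for 27 ends and above 1 for 12. At 6 h it was below 1 for 18 ends and above 1 for 21. Single interior windows were not counted in this way. The quotient matched for density, 0.962, was thus nearer to 1 than the ratio to the list totals, 0.898. Of the ends called at 72 h, 3p had a quotient of 1.27, 19p 0.869, 14q 0.840, 8q 0.881 and 21q 0.915. Each of these was also nearer to 1 than the ratio of that end to the list totals.

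**Figure D4:**
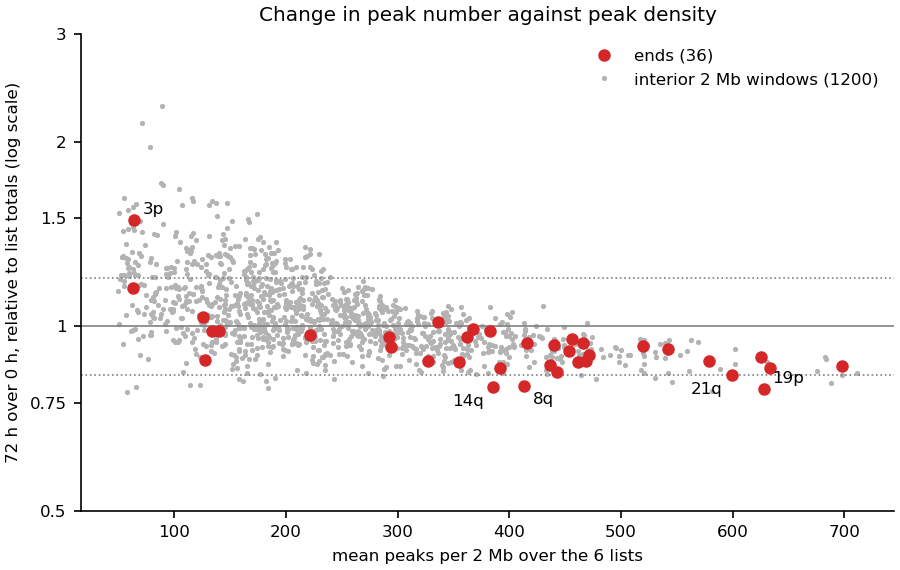
Peak number at 72 h over that at 0 h, relative to the list totals (log scale), against the mean number of peaks over the 6 lists, for the 36 ends (red) and 1200 interior windows (grey) tested; the dotted lines mark 1.2 and its inverse. The ends follow the downward course of the windows, with 3p above the upper dotted line and 19p, 14q, 8q and 21q below the lower one.

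Peaks in the ends were also wider than elsewhere. The median width in the ends was 450, 469, 458, 468, 479 and 493.5 bp from 0 to 72 h. In the rest of the autosomes it was 394, 410, 401, 407, 408 and 420 bp at the same times. The gap between ends and rest came to 73.5 bp in the 72 h list, against 56 bp in normoxia. In 36 of 39 ends the median was larger at 72 h than at 0 h, the exceptions being 6p, 9p and 18p. At 17q it was 617 bp at 72 h, against 501.5 bp at 0 h, the largest difference of all ends. The narrowest peak, in the ends as in the whole list, had 242 bp in the 72 h list and 226 bp in that of 0 h, and its part in the medians was not tested.

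Wide peaks were over-represented in the ends. Peaks of at least 1000 bp made up 17.7% of end peaks at 72 h (interval 17.1 to 18.3%) and 14.8% at 0 h (14.2 to 15.4%). In the rest of the autosomes they made up 8.35% at 72 h and 7.45% at 0 h. Their number in the ends was 2685 at 72 h and 2021 at 0 h, or 32.9% more, against 39.0% more in the rest. The ends held 8.85% of all such autosomal peaks at 72 h and 9.22% at 0 h.

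At sites that every list held, most end regions were wider at 72 h, in a somewhat smaller share than elsewhere; the difference was not tested. A single peak per list was found in 5703 end regions, with a median width at 72 h of 568 bp, whereas at 0 h it was 491 bp. Of these regions, 68.8% were wider at 72 h (interval 67.6 to 70.0%), against 71.3% of 147919 regions elsewhere (71.1 to 71.6%). After each list's narrowest width was taken off, the shares were 64.2% in the ends and 65.6% elsewhere. The regions of a list share 1 library, so the intervals cover counting error alone.

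The change in number was then split into peaks without an overlap at the other time and peaks that were joined or split. Of the 15144 end peaks at 72 h, 3664 (24.2%) overlapped no normoxia peak, against 29.8% in the rest of the autosomes. Of the 13645 end peaks at 0 h, 1397 (10.2%) overlapped no 72 h peak, against 10.0% in the rest. As shares of the 0 h number, new peaks came to 26.9% in the ends and 36.9% in the rest, and lost peaks to 10.2% and 10.0%. By an overlap of at least 1 bp, the ends thus differed from the rest by fewer new peaks more than by lost ones. At 0 h peaks covered 112 kb per Mb in the ends and 51.9 kb per Mb in the rest, and the part of this in the difference was not tested. With an overlap of at least 0.5 of both peaks, the shares of 72 h peaks that overlapped normoxia were close, 63.3% in the ends and 62.4% in the rest.

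Joining took a further part. In the ends 11480 peaks of 72 h lay over 12248 normoxia peaks, a net reduction of 768 peaks or 5.63% of the 0 h number. In the rest 232743 peaks of 72 h lay over 240442 normoxia peaks, a net reduction of 2.88%. A 72 h peak that overlapped 2 or more normoxia peaks was found for 7.62% of end peaks (interval 7.20 to 8.05%) and 3.67% of peaks elsewhere (3.60 to 3.73%). The median distance from one peak to the next was 1.30 kb in the ends and 2.23 kb in the rest at 72 h, against 1.31 kb and 2.37 kb at 0 h.

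**Figure D5:**
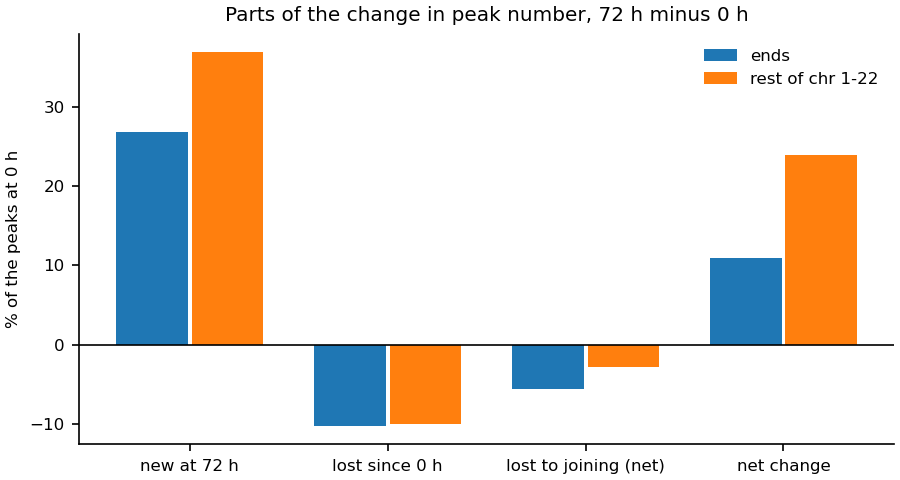
Change in peak number at 72 h, as a percentage of the 0 h number, in the ends and in the rest of chromosomes 1 to 22: peaks at 72 h without a 0 h overlap, peaks at 0 h without a 72 h overlap, net loss through joining, and the sum. The bars for new peaks are 26.9% and 36.9%, those for joining 5.63% and 2.88% below 0, and the sums 11.0% and 24.0%.

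The same split describes the ends that held fewer peaks at 72 h. At 19p, 101 peaks were new and 62 were lost, and 538 peaks of 72 h lay over 593 normoxia peaks, which left 16 peaks fewer. At 8q, 83 were new, 59 were lost and the net number joined was 29. At 14q, 51 were new, 45 were lost and 12 were joined. Every end had more new than lost peaks, and the share of 72 h peaks without a normoxia overlap ran from 13.6% at 14q to 45.7% at 3p. In the rest of the autosomes new peaks also outnumbered lost ones, at 36.9% and 10.0% of the 0 h number. At 3p, 42 of 92 peaks were new and 2 of 50 were lost. Joining exceeded splitting in 36 ends, the exceptions being 1q, 3p and 18p. The counts of ends by new and lost peaks and by joining were not made over the interior windows.

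The share of end peaks already present in normoxia became smaller with time. From 6 to 72 h it was 82.7, 83.0, 80.8, 78.2 and 75.8%, with an interval of 82.1 to 83.3% at 6 h and 75.1 to 76.5% at 72 h. In the rest of the autosomes it was 82.4%, 82.5%, 79.3%, 74.0% and 70.2%. Ends and rest were close at 6 and 12 h and farthest apart at 72 h, where the interval of the rest was 70.1 to 70.4%. When the overlap had to take in at least 0.5 of both peaks, the shares at 72 h were 63.3% in the ends and 62.4% in the rest.

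Overlapping peaks of the 6 lists were joined to regions, 17409 of them in the ends. Of these, 49.5% were present in all 6 lists (interval 48.8 to 50.3%), against 47.0% of the 390266 regions elsewhere. Regions at 72 h alone made up 5.22% in the ends (4.89 to 5.56%) and 7.17% elsewhere, and those at 48 and 72 h alone 2.20% and 3.64%. Regions absent in normoxia and present at every hypoxia time numbered 460 in the ends, or 2.64% (2.41 to 2.89%), against 3.01% elsewhere. Regions in normoxia alone numbered 415, or 2.38% (2.16 to 2.62%), against 1.80% elsewhere. Regions at 6 h alone were likewise more frequent in the ends, with 2.42%, against 1.69% elsewhere. Regions that first appeared after 0 h and were then kept were thus less frequent in the ends, whether from 6 h or from 48 h on. Those at 72 h alone were also less frequent in the ends, but no later list can show whether they were kept. Regions in all lists, at 0 h alone and at 6 h alone were more frequent there, differences that were not tested.

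The widest end peaks at 72 h lay at 17q, 10q, 8q and 16q. The widest measured 9290 bp, on chromosome 17 from 80200118 to 80209407 (hg19), about 970.2 kb from the last peak. The widest peak overlapping it measured 3243, 3139, 3634, 4875 and 7056 bp from 0 to 48 h. A peak of 9122 bp on chromosome 10 from 133785229 to 133794350 overlapped peaks of at most 1129, 1555, 1672, 6001 and 11775 bp at the earlier times. Both places were covered by a much shorter widest peak until 12 h.

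The other 3 had wide peaks at earlier times too. On chromosome 17 from 80057121 to 80065939 the peak of 8819 bp stood against 4499 bp at 0 h and 8921 bp at 6 h. On chromosome 16 from 88563960 to 88572453 the 72 h width of 8494 bp stood beside 8486 bp at 0 h, with 5038 bp at 48 h. On chromosome 8 from 144593833 to 144602344 the 72 h width of 8512 bp stood beside 4784 bp at 0 h, with 10730 bp at 6 h. These widths depend on where the peak caller joined neighbouring peaks.

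Among end regions that every hypoxia list held and normoxia did not, the widest 72 h peaks were at 13q, 7q, 3q and 5p. They lay at 113416179 to 113417348 (1170 bp) and 113671846 to 113672983 (1138 bp) of chromosome 13, at 158161978 to 158162979 (1002 bp) of chromosome 7, at 196773168 to 196774136 (969 bp) of chromosome 3 and at 464749 to 465679 (931 bp) of chromosome 5. The first measured 453, 1033, 312 and 1242 bp from 6 to 48 h. The one on chromosome 7 measured 297, 318, 314 and 371 bp at those times. The 5 were picked for their 72 h width, so their distance from the narrowest width of that list, 242 bp, was set by the choice. At 6 h they measured from 240 bp (chromosome 3) to 453 bp (the first on chromosome 13), where the narrowest peak of the list had 235 bp.

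End regions in normoxia alone were narrow. The widest, of 507 bp, was at 16p, on chromosome 16 from 726340 to 726846. The next, of 502 bp, was at 6p, on chromosome 6 from 1779015 to 1779516. The others were at 12p (chromosome 12, 1144742 to 1145223, 482 bp wide), at 16q (89714175 to 89714650, 476 bp wide) and at 9q (chromosome 9, 140131508 to 140131963, 456 bp wide). The 72 h list had 2685 end peaks that measured 1000 bp or more, of which 7 overlapped no normoxia peak. Of the 2021 such normoxia peaks, 1 overlapped none at 72 h. In the rest of the autosomes 128 of 27665 such peaks at 72 h and 3 of 19901 in normoxia had no overlap. In both, wide peaks thus almost always touched a peak of the other list by at least 1 bp. Such an overlap does not show that the other peak was wide too.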

How the data were processed

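The 6 captured libraries were grouped by the time and oxygen in their labels; the input sample was not analysed here. The deposited files are the peak positions of 1 sample each, in 3 columns without height, score or p-value. Per the submitters' processing notes, the build is hg19 and the tools are BWA 0.7.17, MACS2 and HTSeq, listed with no role. How peaks were thresholded, and whether the input served as control, is not given in the sources used here. Read depth is unknown and its part in the length of the lists was not tested, so intervals cover counting error only.

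Peaks were placed by midpoint, and coordinates are printed 1-based. Shares were set against hours by exact permutation over all 720 orders of the lists. Overlap means at least 1 bp, and intervals are exact Clopper-Pearson at 95%. Windows were tiled in steps of 2 Mb. Named are the 5 highest and 5 lowest ratios, the 3 richest and 3 poorest ends, and the 5 widest peaks or regions of each kind; 11p, 20p, 6p and the other ends were named after their values were seen. The members, the rule of size and all measures were chosen with earlier results of these data known, and the split into new, lost and joined peaks, the distance bands and the regions common to all lists were added afterwards. On simulated lists of 60000 peaks the scripts returned 13 of 13 known quantities within 0.5%. The tools were Python 3.11.15 with NumPy 2.4.6, SciPy 1.17.1, pandas 2.3.3 and Matplotlib 3.10.9.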

Additional observations from a re-analysis of the deposited data

How the results depend on the processing

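The falling share of number kept its side of the threshold for r with ends of 1 or 5 Mb, peaks of at least 500 bp, the widest peaks at equal list length, peaks under 300 bp apart merged, p or q ends alone and the outermost 200 kb left out, as did the share of covered length. With each list left out, r ranged from -0.992 to -0.977 for number and from -0.978 to -0.963 for covered length. When narrower peaks than 1000 bp were left out, r was -0.319 (exact permutation p = 0.521) for number and -0.0674 (exact permutation p = 0.896) for covered length; the cause was not tested. Chosen after seeing the data, chromosomes 1 to 22 as the denominator gave -0.982 and -0.965, and the ends with a mean of at least 50 peaks -0.981 for number.

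The ratio of 0.898 at 72 h was 0.959 for those wide peaks, 0.940 at equal list length, 0.931 by covered length and 0.962 against windows of the same density. Ends called lower numbered 17 at a fold of 1.1 (13.6% of windows), 0 at 1.5 (0% of windows), and 1 each by covered length (2% of windows), with 6 h as the reference (0.5%) and at equal list length (2.28%). Ends called higher numbered 2 of 36 at a fold of 1.1 (29.1% of windows) and 0 at 1.5 (1.67%). The share of 72 h end peaks overlapping normoxia was 63.3% with at least 0.5 of both (62.4% in the rest), 70.5% by midpoint (66.9%), 83.0% at equal list length (79.1%) and 95.0% for peaks of at least 500 bp (94.1%). The width gap at 72 h was 112 bp for peaks of at least 500 bp and 89 bp at equal list length. Since the list of 0 h is the shortest, equal length drops narrow peaks of the later times alone. No paired analysis was possible because each time has 1 library. Depth is unknown, so its effect on the ends has no value here.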

Other observations

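Peak-free stretches were long in some ends. At 72 h 44 gaps between neighbouring peaks within the ends exceeded 100 kb, against 50 at 0 h, and the longest was 1024 kb, at 1q. Gaps under 1 kb made up 43.3% of gaps in the ends and 31.6% in the rest of the autosomes at 72 h, against 43.1% and 31.4% at 0 h. Covered length in the outermost 0.1 Mb was 181 kb at 72 h against 134 kb at 0 h, or 1.35 times. Relative to the covered length of the whole lists this was 1.03 times.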
